A study of Homo sapiens with 9 samples.

Results

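The genes described here are those of the interferon response and of antigen processing for MHC class I, taken as a list of 48 gene symbols; the rule itself uses no measured value. A member was followed through every probe set that carries its symbol alone and has values, dim ones included. Of the 48 members, 30 had such a probe set (38 probe sets in all), out of 9453 genes with values, while 17 had probe sets without values in the table and 1, STAT2, was not analysed here. RNA of HT1080, an established line from a human fibrosarcoma, was measured on 9 Affymetrix expression arrays, 3 for each of 3 groups, which the series calls biological replicates. The first group was MTAP- cells, which lack methylthioadenosine phosphorylase and were not treated. The second was MTAP+ cells, which have the enzyme and were not treated either, and the third was MTAP+ cells exposed for 48 hours to MT-DADMe-ImmA, a compound that blocks MTAP, at 10 µM. The sources used here do not say how the MTAP+ cells were made or whether they are a clone or a pool.

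Interferons bind receptors that work through Janus kinases and STAT proteins. Type I interferons lead to a complex of STAT proteins with IRF9 that binds the interferon-stimulated response element (ISRE), and type II interferon leads to STAT dimers that bind the gamma-activated site (GAS). The genes switched on in this way encode sensors of foreign RNA, proteins that block viral entry, translation or replication, the ubiquitin-like protein ISG15, and the machinery that cuts proteins into peptides and loads them on MHC class I. MTAP breaks down the methylthioadenosine left over when polyamines are made, which returns its adenine and its methylthio group to use.

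MTAP itself followed the labels: its probe set read 4.41, 4.25 and 5.02 in MTAP- cells, 11.63, 11.74 and 11.37 in MTAP+ cells and 11.21, 11.30 and 11.10 with inhibitor (log2). The median of all probe sets with values lay between 8.24 and 8.38 on the 9 arrays. For the ACTB control, the 5' probe set minus the 3' one, which falls as RNA is degraded, read -2.50 ± 0.90 in MTAP- cells, -1.43 ± 0.45 in MTAP+ cells and -1.64 ± 0.66 with inhibitor (log2, SD, n = 3), and it was lowest on MTAP- replicate 3 at -3.52. Of 15 mesenchymal markers 8 had values, with VIM at 14.02 ± 0.05 in MTAP- cells, 13.93 ± 0.09 in MTAP+ cells and 14.00 ± 0.05 with inhibitor. The list did not hold still: FN1 (1.34 ± 0.15, adjusted p = 3.27e-04) and COL6A1 (0.78 ± 0.10, adjusted p = 8.35e-04) were higher in MTAP+ than in MTAP- cells, and FN1, COL6A1 and CDH2 were higher and SNAI2 lower in inhibitor-treated than in MTAP- cells. Of 17 leukocyte markers on the array only LYZ had values, of 8 endothelial markers only TIE1, and of 12 epithelial markers only KRT8 and KRT18, which had no call in any comparison. KRT18 read 12.24 ± 0.16 in MTAP- cells, 12.47 ± 0.19 in MTAP+ cells and 12.35 ± 0.05 with inhibitor (log2, SD, n = 3). For KRT8 these values were 9.76 ± 0.82, 10.12 ± 0.24 and 9.73 ± 0.10.

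Short sequences in front of the members' starts describe part of the list at the level of DNA. The list was drawn up from genes of the interferon response, so a high share of ISRE letters is no finding of these data. The 250 bases before each annotated transcription start in RefSeq (GRCh38.p14) were searched on both strands for the ISRE letters, GAAA repeated with any 2 bases between, and for the GAS letters TTCNNNGAA, where N is any base. No ISRE match overlapped a GAS match in a member with values. These motifs are short, and a match is a description of the letters only. A RefSeq window was found for 41 of the 48 members. ISRE letters were present before 28 of these 41 members (68.3%) and GAS letters before 12 (29.3%), against 3.71% and 8.09% of 27305 genes with a window. Among the 28 members with both a window and values, 20 held ISRE letters and 8 held GAS letters, and 3 of these, IFITM1, PARP14 and TAP1, held both.

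Stretches around a match are printed for members whose values differ in kind below, 5' to 3' on the gene's strand and with the matched letters in capitals. The first set holds ISRE letters. ISG20, which rose with the inhibitor (chr15:88638922-88638981, plus strand), is followed by IFIT1 (chr10:89392495-89392554, plus strand), ISG15 (chr1:1013365-1013424, plus strand) and SAMD9 (chr7:93118081-93118140, minus strand), which fell with it to below the MTAP- level, and by PARP9 (chr3:122564307-122564366, minus strand), which rose with MTAP and fell with the inhibitor.
ISG20: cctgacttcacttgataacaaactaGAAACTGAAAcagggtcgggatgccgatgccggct
IFIT1: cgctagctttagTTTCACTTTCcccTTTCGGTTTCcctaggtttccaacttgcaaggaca
ISG15: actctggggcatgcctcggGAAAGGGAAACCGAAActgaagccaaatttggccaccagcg
SAMD9: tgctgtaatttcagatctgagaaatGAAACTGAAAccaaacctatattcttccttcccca
PARP9: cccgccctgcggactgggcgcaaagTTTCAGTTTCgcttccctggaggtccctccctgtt

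IRF1 (chr5:132490864-132490922, minus strand), IRF9 (chr14:24161177-24161235, plus strand), IFI35 (chr17:43006737-43006783, plus strand) and PSMB8 (chr6:32844079-32844137, minus strand) form a set with GAS letters and no ISRE letters in the window. All 4 were higher in MTAP+ than in MTAP- cells, as were 10 of the 20 members with ISRE letters and values. IRF1, IRF9 and IFI35 also fell with inhibitor.
IRF1: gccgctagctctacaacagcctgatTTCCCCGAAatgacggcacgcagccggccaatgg
IRF9: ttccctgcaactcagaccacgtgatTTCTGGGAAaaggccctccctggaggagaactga
IFI35: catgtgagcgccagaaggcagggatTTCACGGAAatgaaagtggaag
PSMB8: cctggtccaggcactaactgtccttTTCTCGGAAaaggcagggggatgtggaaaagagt

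Among members with values the nearest ISRE match lay 12 to 3 bases before the start, in OAS3, and the farthest match of either kind was a GAS match 189 to 181 bases before it, in TAP1. The map of the matches shows them for all 28 members that have both a window and values.

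**Figure D1:**
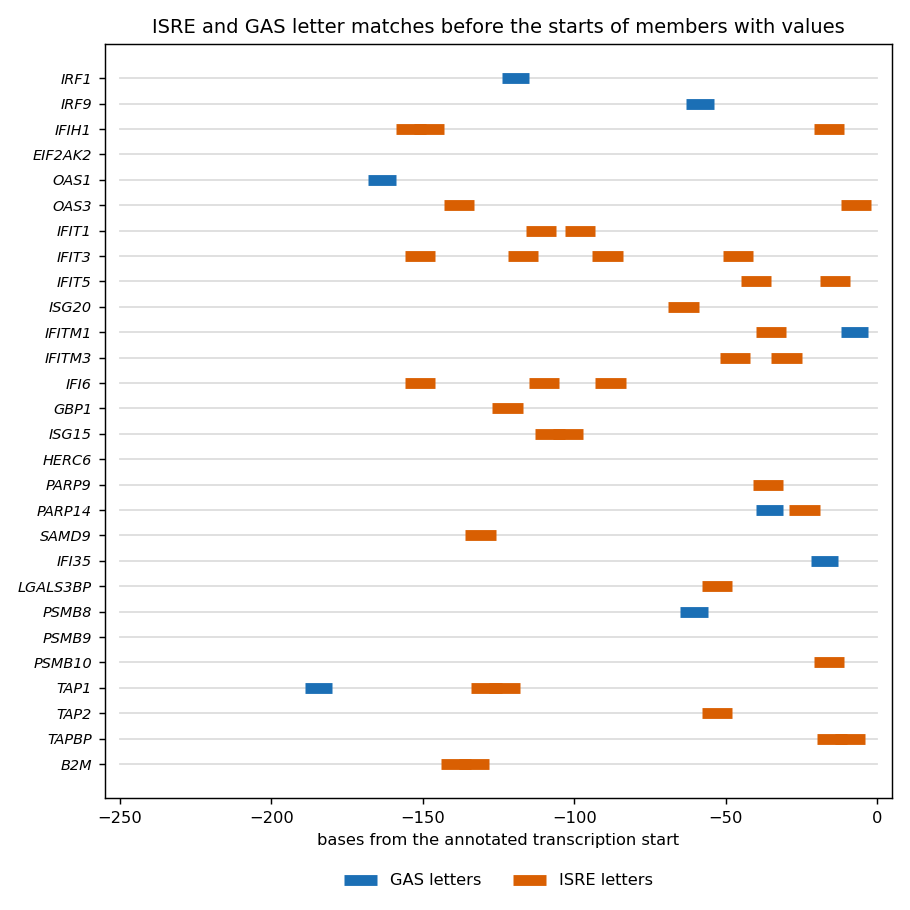
Positions of ISRE letters (orange) and GAS letters (blue) in the 250 bases before the annotated transcription start (x axis, bases from the start) of the 28 members with a RefSeq window and values (rows), all windows of a gene drawn on 1 row. ISRE letters appear in 20 rows, GAS letters in 8 and neither in 3 (EIF2AK2, HERC6 and PSMB9).

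The first comparison asked how these genes differ between cells with and without MTAP. In MTAP+ cells 16 of the 30 members were higher and 0 were lower, with 0 lower also at an unadjusted p under 0.05 (limma, Benjamini-Hochberg adjusted p below 0.05 over all genes). Over all 9452 genes other than MTAP, 11.7% were called higher and 6.85% lower, beside 53.3% higher among the members. The 16 genes were both transcription factors with values (IRF1 and IRF9), 5 RNA sensors and effectors (IFIH1, OAS1, OAS3, IFIT3 and ISG20), IFITM1, GBP1, PARP9, PARP14, IFI35, all 3 immunoproteasome subunits and the peptide-loading factor TAPBP. Every probe set with values reached 6.64 (log2) on at least 3 arrays. For IFIH1, OAS1, OAS3, IFITM1 and PARP9 no MTAP- array did. The table kept these genes through MTAP+ arrays, where they were high, so their calls are no support. The median log2 change of the 30 members was 0.71, with quartiles of 0.18 and 1.18, beside 0.02 over all genes. With the replicate numbers of the labels as a block, 19 members were higher and 1, IFIT5, was lower (adjusted p = 0.0366). In that fit 16.0% of all genes were called higher and 9.96% lower. Arrays of the groups did not overlap for 19 members, all of them with MTAP+ above MTAP-, where 34.8% of all genes lay apart, 19.6% in that direction and 15.2% in the other. In RNA from whole cultures, fewer cells expressing a gene and less RNA per cell cannot be told apart.

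ACTB 5' minus 3' differences moved with this comparison, as given above. With that difference as a covariate 13 members were called higher, where 5.09% of all genes were called higher and 1.91% lower in the same fit: IFIT3 (adjusted p = 0.144), PSMB10 (0.0567) and TAPBP (0.0912) no longer passed. IFIT3 also missed the threshold without MTAP- replicate 1 (adjusted p = 0.0548) or 3 (0.0632) or without MTAP+ replicate 3 (0.065). LYZ, the leukocyte marker with values, read 4.89 ± 0.06 in MTAP- cells, 7.35 ± 0.51 in MTAP+ cells and 5.68 ± 0.05 with inhibitor (log2, SD, n = 3). Its summed level ran from 28 to 31, 109 to 205 and 50 to 53 on the linear scale. LYZ had a call in all 3 comparisons. Only its untreated MTAP+ arrays reached 6.64 (log2), the level that every probe set with values reached on at least 3 arrays. LYZ was thus kept through that group alone and had to differ there. Its call between inhibitor-treated and MTAP- cells compares groups that both lay below 6.64. TIE1, the endothelial marker with values, was higher with MTAP (0.61 ± 0.15, adjusted p = 0.0227) and in inhibitor-treated than in MTAP- cells (0.94 ± 0.15, adjusted p = 0.00115), its summed level running from 1172 to 1802, 2225 to 2537 and 2868 to 3101 on the linear scale. The part of LYZ and TIE1 in the result was not tested.

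The second comparison asked what the inhibitor did to MTAP+ cells. Of the 30 members, 9 were lower and 1, ISG20, was higher with it. Those that fell were IRF1, IRF9, IFIT1, IFIT3, GBP1, ISG15, PARP9, SAMD9 and IFI35. Over all genes 7.49% were called lower and 5.95% higher, beside 30% and 3.33% of the members. The median log2 change was -0.27 over the members and -0.02 over all genes. Arrays lay apart for 2 members above and 11 below, where 34.8% of all genes did so, 15.6% above and 19.1% below. By sign alone, 19 members had a negative and 11 a positive log2 change.

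With the replicate numbers of the labels as a block, 11 members were lower and 3 higher with inhibitor, where 11.0% of all genes were called lower and 9.27% higher in the same fit. The added calls were OAS3 and IFIT2 among the falls (adjusted p = 0.025 and 0.0159) and IFIH1 and IFITM2 among the rises (0.0214 and 0.0412). IFIT1, PARP9 and IFI35 passed in every alternative in which they were fitted. The table kept PARP9 through the untreated MTAP+ arrays alone, so it had to differ and its passing is no support. IRF1 and IRF9 missed the threshold when only the 2 groups were fitted (adjusted p = 0.0588 and 0.0604), and IRF9 also with all probe sets fitted (0.0648) and with the ACTB covariate (0.056). SAMD9 lost its call only when values below 6.64 (log2 of 100, the level each probe set of the table reached on at least 3 arrays) were raised to it (adjusted p = 0.28). Leaving out 1 array ended 6 of the 10 calls. Without MTAP+ replicate 1, IRF1 (adjusted p = 0.0655), IRF9 (0.141) and ISG15 (0.0658) were lost, and without MTAP+ replicate 2, IRF9 (0.0587), ISG20 (0.0519) and GBP1 (0.0505). Without MTAP+ replicate 3, IRF1 (0.0751) and IRF9 (0.0548) were lost, and without MTAP- replicate 1, IRF9 (0.0663). Without inhibitor replicate 1, IRF1 (0.0606), IRF9 (0.0935), IFIT3 (0.0547), ISG20 (0.0799) and GBP1 (0.0785) missed the threshold, leaving 5 falls. Without inhibitor replicate 2 it was IRF1 (0.098), IRF9 (0.0538) and ISG20 (0.0511). Without inhibitor replicate 3 it was IRF1 (0.113), IRF9 (0.189), IFIT3 (0.0626), ISG20 (0.076), GBP1 (0.0678) and ISG15 (0.104), leaving 4 falls.

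**Figure D2:**
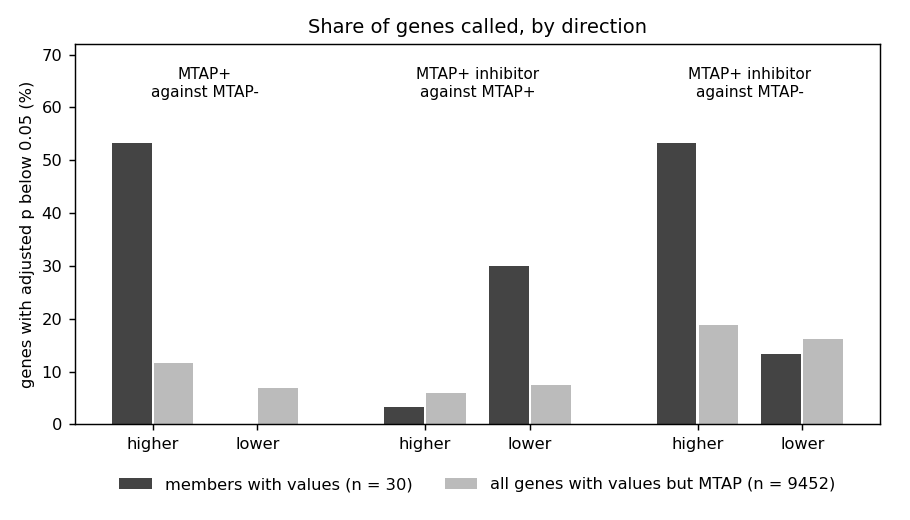
Share of genes with adjusted p below 0.05 (y axis, percent) that were higher or lower in each of the 3 comparisons, for the 30 members with values (dark bars) and for all 9452 genes with values other than MTAP (grey bars). Members were called higher in 53.3% with MTAP, where all genes gave 11.7%, and lower in 30% with inhibitor, where all genes gave 7.49%.

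Set against MTAP- cells, inhibitor-treated cells still had 16 members higher, and now 4 lower: IFIT1, IFIT5, ISG15 and SAMD9. All genes gave 35.0% called, 18.8% higher and 16.2% lower, beside 53.3% and 13.3% of the members. Arrays lay apart for 19 members above and 5 below, against 26.9% and 25.8% of all genes (52.7% in all). The 3 comparisons share their arrays in pairs, so their values are given side by side and are not independent. By calls, 4 members that were higher with MTAP fell with inhibitor and stayed above MTAP- cells: IRF1, IRF9, GBP1 and IFI35. IFIT3 and PARP9 rose with MTAP, fell with inhibitor and had no call between inhibitor-treated and MTAP- cells. IFIT1, ISG15 and SAMD9 had no call for MTAP and fell with inhibitor to below MTAP- cells. A further 8 members, IFIH1, OAS1, OAS3, IFITM1, PARP14, PSMB8, PSMB9 and TAPBP, were higher in both MTAP+ groups than in MTAP- cells and had no call for the inhibitor. ISG20 rose in each step. LGALS3BP, TAP1 and B2M were called only between inhibitor-treated and MTAP- cells. Of the rest, PSMB10 was called only for MTAP and IFIT5 only as lower in inhibitor-treated than MTAP- cells, while EIF2AK2, IFIT2, IFITM2, IFITM3, IFI6, HERC6 and TAP2 had no call in any comparison.

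**Figure D3:**
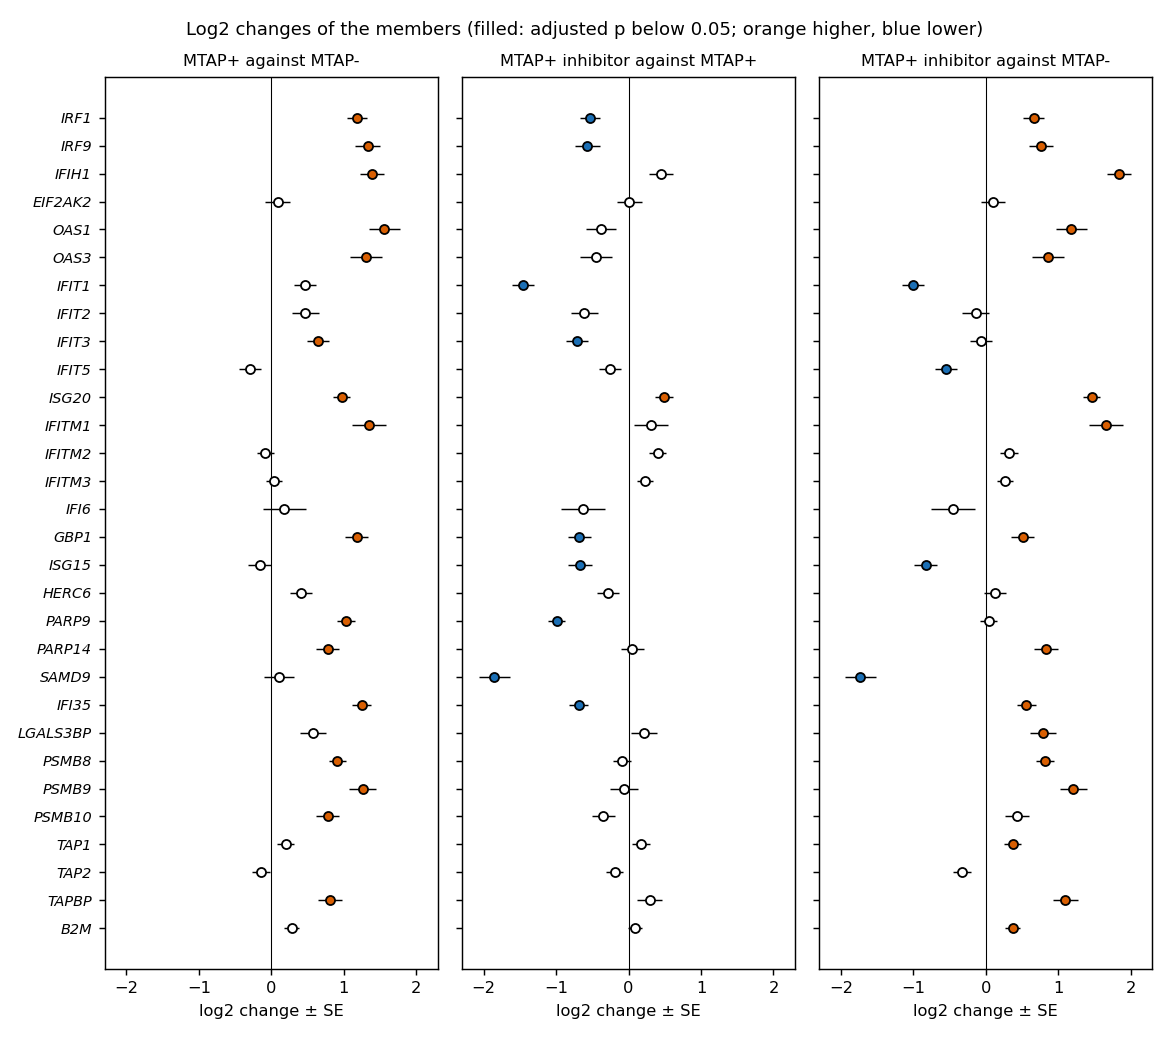
Log2 change ± SE (x axis) of each of the 30 members (rows, ordered by role) in the 3 comparisons (panels); filled points passed the test (orange higher, blue lower). The left panel holds 16 orange and 0 blue points, the middle 1 and 9, and the right 16 and 4.

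Among the transcription factors, IRF1, which interferon induces and which drives antigen processing genes, read 7.42, 7.24 and 7.26 in MTAP- cells, 8.45, 8.23 and 8.78 in MTAP+ cells and 8.05, 7.89 and 7.94 with inhibitor (log2, replicates 1 to 3). The 3 groups did not overlap: MTAP- arrays were lowest, MTAP+ arrays highest and inhibitor arrays between them. The log2 change was 1.18 ± 0.14 with MTAP (± SE; adjusted p = 3.79e-04, 2.27-fold) and -0.53 ± 0.14 with inhibitor (adjusted p = 0.0324). IRF9, the DNA-binding part of the complex that recognises the ISRE, read 7.81, 8.12 and 7.66 in MTAP- cells, 9.46, 9.07 and 9.05 in MTAP+ cells and 8.68, 8.83 and 8.36 with inhibitor. It showed the same order without overlap, with a log2 change of 1.33 ± 0.17 for MTAP (2.51-fold) and -0.57 ± 0.17 for the inhibitor (adjusted p = 0.0467). IRF7, the factor that amplifies type I interferon production, had a probe set without values.

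Of the RNA sensors and effectors, IFIH1 encodes MDA5, a sensor of long double-stranded RNA, and read 5.56, 5.50 and 5.87 in MTAP- cells, 6.82, 6.87 and 7.40 in MTAP+ cells and 7.26, 7.55 and 7.63 with inhibitor. MTAP- arrays lay below 6.64 (log2 of 100), the level that every probe set of the table reached on at least 3 arrays, and all 6 other arrays lay above it. Where a group mean is below 6.64, a change is given as a lower bound counted from that level. IFIH1 was thus at least 1.31-fold higher with MTAP (array values differed by 1.39 ± 0.17, adjusted p = 5.74e-04) and at least 1.79-fold higher in inhibitor-treated than MTAP- cells. Its change with inhibitor, 0.45 ± 0.17, did not pass (adjusted p = 0.115), but passed with the replicate block (0.0214).

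OAS1 and OAS3 make the oligoadenylates that activate RNase L. OAS1 read 5.07, 5.96 and 5.44 in MTAP- cells, 7.16, 7.01 and 6.99 in MTAP+ cells and 6.44, 6.97 and 6.60 with inhibitor. OAS3 read 6.14, 5.59 and 5.98 in MTAP- cells, 7.68, 6.97 and 6.99 in MTAP+ cells and 7.05, 6.57 and 6.67 with inhibitor. Both were below 6.64 on every MTAP- array and above it on every MTAP+ array, at least 1.33-fold and 1.48-fold higher. Inhibitor arrays of OAS1 all lay below the MTAP+ arrays, but the change of -0.38 ± 0.21 did not pass (adjusted p = 0.252). For OAS3 the change was -0.45 ± 0.22 (adjusted p = 0.195, or 0.025 with the replicate block). With values below 6.64 raised to it, the calls for MTAP of IFIH1 (adjusted p = 0.113) and OAS3 (0.0595) were lost, as were the inhibitor against MTAP- calls of OAS1 (0.477) and OAS3 (0.584).

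IFIT proteins bind viral or unmodified RNA ends and block translation. IFIT1 read 7.24, 7.70 and 7.46 in MTAP- cells, 7.89, 8.06 and 7.83 in MTAP+ cells and 6.26, 6.69 and 6.45 with inhibitor. Its inhibitor arrays were the lowest of all 9, with no overlap with either other group. It fell at least 2.43-fold from MTAP+ cells (array values changed by -1.46 ± 0.15, adjusted p = 9.58e-04) and lay at least 1.77-fold below MTAP- cells (adjusted p = 6.25e-04). Its change with MTAP, 0.46 ± 0.15, missed the threshold (adjusted p = 0.0535) and passed with the replicate block (0.00993).

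IFIT3 read 8.08, 8.48 and 8.04 in MTAP- cells, 8.65, 8.90 and 8.96 in MTAP+ cells and 7.93, 8.32 and 8.13 with inhibitor on its brighter probe set. MTAP+ arrays lay above all others, while MTAP- and inhibitor arrays overlapped. The changes were 0.64 ± 0.15 with MTAP (adjusted p = 0.0175) and -0.71 ± 0.15 with inhibitor (0.0145). On the other IFIT3 probe set they were 0.57 ± 0.17 and -0.34 ± 0.17, and the fall was not called there (adjusted p = 0.232). IFIT2 showed changes of 0.47 ± 0.19 and -0.61 ± 0.19 that did not pass (adjusted p = 0.116 and 0.0619), and passed with the replicate block (0.0365 and 0.0159). IFIT5 read 9.15, 9.52 and 9.33 in MTAP- cells, 8.87, 9.28 and 8.96 in MTAP+ cells and 8.59, 8.99 and 8.76 with inhibitor. MTAP- and MTAP+ arrays overlapped, and the change with MTAP was -0.29 ± 0.15 (adjusted p = 0.193, or 0.0366 with the replicate block). Its other probe set was called lower with MTAP (-0.38 ± 0.10, adjusted p = 0.033 over all probe sets). IFIT5 was lower in inhibitor-treated than in MTAP- cells (log2 change -0.55 ± 0.15, adjusted p = 0.0163), a call lost without MTAP- replicate 2 (0.0615) or inhibitor replicate 1 (0.0665) or 3 (0.053).

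ISG20 is an exonuclease that degrades single-stranded RNA. It read 7.78, 7.95 and 7.70 in MTAP- cells, 8.88, 8.59 and 8.86 in MTAP+ cells and 9.36, 9.20 and 9.23 with inhibitor. The groups rose in steps with no overlap, and ISG20 was the only member called higher both with MTAP (0.97 ± 0.12, adjusted p = 4.57e-04) and with inhibitor (0.49 ± 0.12, adjusted p = 0.022). It ended 2.74-fold above MTAP- cells. Its other probe set gave 0.98 ± 0.11 and 0.60 ± 0.11, both called. EIF2AK2, the kinase PKR that halts translation on double-stranded RNA, changed by 0.09 ± 0.17 and 0.01 ± 0.17 and had no call. Thus 5 of the 9 RNA sensors and effectors with values were higher with MTAP, while with inhibitor 2 fell and 1 rose.

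**Figure D4:**
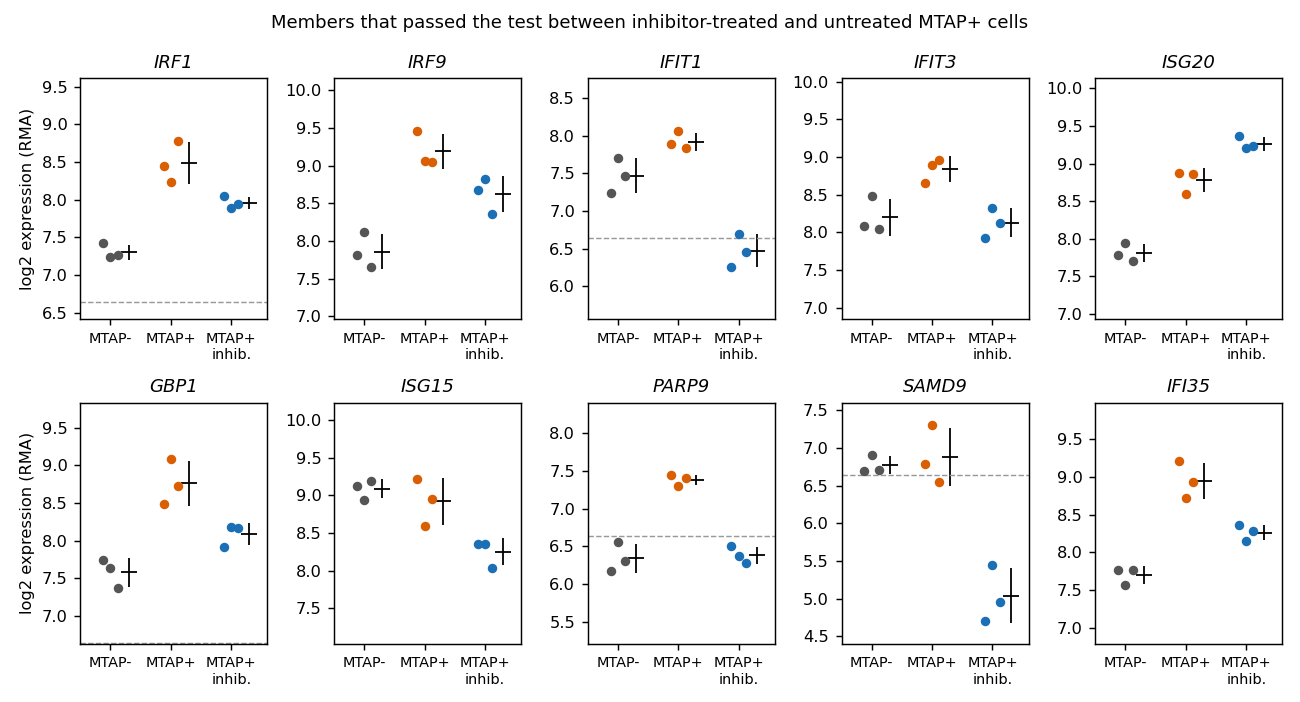
Log2 expression (y axis, each panel spanning the same 3.2 log2 units) on every array of the 10 members that passed the test between inhibitor-treated and untreated MTAP+ cells; points are arrays, bars beside them the mean ± SD (n = 3), and the dashed line is 6.64. ISG20 is highest with inhibitor, whereas IFIT1, ISG15 and SAMD9 are lowest with inhibitor and PARP9 and IFIT3 overlap the MTAP- arrays.

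Among membrane and vesicle proteins, IFITM1, which restricts viral entry at the cell surface, read 5.77, 6.44 and 6.36 in MTAP- cells, 7.49, 7.13 and 8.0 in MTAP+ cells and 7.98, 7.98 and 7.60 with inhibitor. All MTAP- arrays were below 6.64 and all others at 7.13 or more. The gene was thus at least 1.86-fold higher with MTAP and at least 2.31-fold higher in inhibitor-treated than MTAP- cells. IFITM2 and IFITM3 act in endosomes. IFITM2 read 11.93, 11.76 and 11.85 in MTAP- cells, 11.78, 11.54 and 11.98 in MTAP+ cells and 12.14, 12.25 and 12.13 with inhibitor. IFITM3 read 12.20, 12.09 and 12.20 in MTAP- cells, 12.20, 12.02 and 12.38 in MTAP+ cells and 12.37, 12.54 and 12.38 with inhibitor. Their changes with MTAP were -0.08 ± 0.12 and 0.04 ± 0.11 and did not pass. Both were higher on every inhibitor array than on any MTAP- array, and the changes of 0.32 ± 0.12 and 0.27 ± 0.11 did not pass (adjusted p = 0.0623 and 0.0908). IFITM2 changed by 0.40 ± 0.12 with inhibitor (adjusted p = 0.0534, or 0.0412 with the replicate block and 0.0259 to 0.157 over its alternatives). IFITM transcripts are alike in sequence, and the IFITM1, IFITM2 and IFITM3 probe sets, all of a kind marked as able to bind several transcripts, may not separate them.

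GBP1, a large GTPase that coats intracellular pathogens, had 3 probe sets with values. The brightest read 7.74, 7.63 and 7.37 in MTAP- cells, 8.49, 9.09 and 8.72 in MTAP+ cells and 7.92, 8.18 and 8.17 with inhibitor, without overlap between any 2 groups. It was 2.27-fold higher with MTAP (adjusted p = 9.67e-04) and 1.6-fold lower with inhibitor (0.0222). On the other probe sets the change with inhibitor was -0.67 ± 0.14 and -0.66 ± 0.12, both called. GBP1 stayed above MTAP- cells by 0.51 ± 0.16 (adjusted p = 0.0323), but this call was lost on the probe set that binds only its transcript (0.126), with repeated quantile normalization (0.0517), with the ACTB covariate (0.172), and without MTAP- replicate 2 (0.0632) or 3 (0.111) or inhibitor replicate 2 (0.0973) or 3 (0.103). IFI6, a mitochondrial and endoplasmic reticulum protein, varied widely within groups, from 6.32 to 7.53 in MTAP+ cells, and had no call. BST2, IFI27, MX1, MX2, RSAD2 and CMPK2 had probe sets without values.

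ISG15 is the ubiquitin-like protein that is conjugated to many targets in the interferon response. It read 9.13, 8.94 and 9.19 in MTAP- cells, 9.22, 8.60 and 8.95 in MTAP+ cells and 8.35, 8.36 and 8.04 with inhibitor. MTAP- and MTAP+ arrays overlapped and the inhibitor arrays lay below both, with changes of -0.16 ± 0.16 for MTAP (adjusted p = 0.508) and -0.67 ± 0.16 for the inhibitor (0.0221). ISG15 was 1.78-fold lower in inhibitor-treated than in MTAP- cells. HERC6, of the HERC ligase family, changed by 0.41 ± 0.15 and -0.28 ± 0.15 without a call. HERC5, the ligase for ISG15 in human cells, and USP18, the enzyme that removes it, had probe sets without values.

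SAMD9 encodes an antiviral protein that restrains cell growth. It read 6.69, 6.91 and 6.71 in MTAP- cells, 6.79, 7.30 and 6.55 in MTAP+ cells and 4.70, 5.44 and 4.96 with inhibitor. The highest inhibitor array read 5.44 and the lowest array of the other groups, which overlapped, 6.55. Inhibitor arrays were under 6.64, so the fall was at least 1.18-fold from MTAP+ cells (array values changed by -1.85 ± 0.21, adjusted p = 0.00113) and at least 1.09-fold below MTAP- cells. Both calls were lost when values below 6.64 were raised to it (adjusted p = 0.28 and 0.564).

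PARP9 and PARP14 belong to the ADP-ribosyltransferase family, and PARP9 works in a complex with the ubiquitin ligase DTX3L. PARP9 read 6.17, 6.55 and 6.31 in MTAP- cells, 7.44, 7.30 and 7.40 in MTAP+ cells and 6.50, 6.37 and 6.28 with inhibitor. Only the MTAP+ arrays lay above 6.64, so the table kept this probe set through that group alone and it had to differ. It was at least 1.66-fold higher with MTAP and fell at least 1.66-fold with inhibitor (array values 1.03 ± 0.12 and -0.99 ± 0.12, adjusted p = 3.40e-04 and 0.00113). DTX3L, a gene outside the 48 whose RefSeq window overlaps that of PARP9 by 137 bases on the opposite strand, read 8.98, 9.17 and 9.16 in MTAP- cells, 9.93, 9.71 and 10.07 in MTAP+ cells and 9.80, 9.86 and 9.86 with inhibitor. It rose with MTAP by 0.80 ± 0.11 and changed by -0.06 ± 0.11 with inhibitor (adjusted p = 0.773). DTX3L was chosen after its values were seen, and the difference between the 2 genes was not tested. PARP14 read 6.81, 6.60 and 6.80 in MTAP- cells, 7.25, 7.40 and 7.90 in MTAP+ cells and 7.40, 7.66 and 7.66 with inhibitor and was higher in both MTAP+ groups, by 0.78 ± 0.16 without and 0.83 ± 0.16 with inhibitor.

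IFI35, a leucine zipper protein that partners NMI, read 7.77, 7.56 and 7.77 in MTAP- cells, 9.21, 8.72 and 8.93 in MTAP+ cells and 8.36, 8.15 and 8.28 with inhibitor. The 3 groups did not overlap. It rose 2.39-fold with MTAP (adjusted p = 2.51e-04), fell 1.61-fold with inhibitor (0.0093) and stayed 1.48-fold above MTAP- cells. LGALS3BP, a secreted glycoprotein, read 10.95, 11.15 and 10.63 in MTAP- cells, 11.54, 11.12 and 11.81 in MTAP+ cells and 11.86, 11.55 and 11.68 with inhibitor and was called only between inhibitor-treated and MTAP- cells (0.79 ± 0.18, adjusted p = 0.008). Its change with MTAP was 0.58 ± 0.18 (adjusted p = 0.0528, or 0.0489 with the replicate block). Of the 13 members in this group 7 had values, and XAF1, IFI44, IFI44L and SAMD9L were among those without. Both chemokines of the list, CXCL10 and CXCL11, had probe sets without values.

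Immunoproteasome subunits, which replace the standard catalytic subunits and favour peptides that fit MHC class I, were higher with MTAP in 3 of 3. PSMB8 read 8.97, 8.68 and 8.62 in MTAP- cells, 9.78, 9.54 and 9.69 in MTAP+ cells and 9.67, 9.46 and 9.59 with inhibitor. PSMB9 read 6.97, 6.99 and 6.97 in MTAP- cells, 8.47, 7.71 and 8.54 in MTAP+ cells and 8.26, 8.05 and 8.23 with inhibitor. PSMB10 read 7.74, 7.49 and 7.51 in MTAP- cells, 8.53, 7.98 and 8.57 in MTAP+ cells and 8.0, 8.11 and 7.93 with inhibitor. Every MTAP+ array, treated or not, lay above every MTAP- array for all 3 genes. The rises with MTAP were 1.88-fold, 2.4-fold and 1.71-fold (adjusted p = 8.38e-04, 0.00154 and 0.00756). With inhibitor none of the 3 passed: the log2 changes were -0.09 ± 0.12, -0.06 ± 0.19 and -0.35 ± 0.16, with 95% intervals of -0.36 to 0.18, -0.47 to 0.36 and -0.69 to 0.00. Among the MTAP+ arrays of PSMB9, replicate 2 was lowest at 7.71.

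Of the 4 peptide transport and class I assembly genes, 1 was higher with MTAP and 3 were higher in inhibitor-treated than in MTAP- cells. TAPBP, the tapasin that bridges the transporter and MHC class I, read 9.47, 9.54 and 9.11 in MTAP- cells, 10.33, 9.81 and 10.41 in MTAP+ cells and 10.52, 10.58 and 10.32 with inhibitor. It rose by 0.81 ± 0.17 with MTAP (adjusted p = 0.0098) and was 2.15-fold higher in inhibitor-treated than MTAP- cells. TAP1 and TAP2 form the transporter. TAP1 read 8.08, 8.0 and 8.19 in MTAP- cells, 8.42, 8.05 and 8.41 in MTAP+ cells and 8.46, 8.52 and 8.39 with inhibitor and was called only between inhibitor-treated and MTAP- cells (0.37 ± 0.12, adjusted p = 0.037). That call was lost in 8 alternatives, among them with arrays centred (0.0783), and without MTAP- replicate 1 (0.0845) or 2 (0.102) or any inhibitor replicate (0.0896, 0.11 and 0.0705 for replicates 1 to 3). TAP2 had a log2 change of -0.33 ± 0.12 in the same comparison, which missed the threshold (adjusted p = 0.052, 0.0322 to 0.188 over its alternatives). PSMB9 and TAP1 lie head to head, with RefSeq windows that overlap by 13 bases.

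B2M, the invariant chain of MHC class I, had 2 probe sets with values that gave different calls. The brighter read 12.59, 12.85 and 12.65 in MTAP- cells, 12.96, 12.93 and 13.05 in MTAP+ cells and 13.09, 13.04 and 13.07 with inhibitor and changed by 0.28 ± 0.10 with MTAP (adjusted p = 0.0723). The other read 12.24, 11.89 and 12.34 in MTAP- cells, 12.80, 12.77 and 12.99 in MTAP+ cells and 12.86, 13.04 and 12.92 with inhibitor and was called higher by 0.70 ± 0.13 (adjusted p = 0.00908 over all probe sets). In inhibitor-treated against MTAP- cells they gave 0.37 ± 0.10 and 0.79 ± 0.13, both called. For the brighter one that call was lost without MTAP- replicate 1 (0.0605) or 3 (0.0502) or inhibitor replicate 1 (0.0537) or 3 (0.0513).

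**Figure D5:**
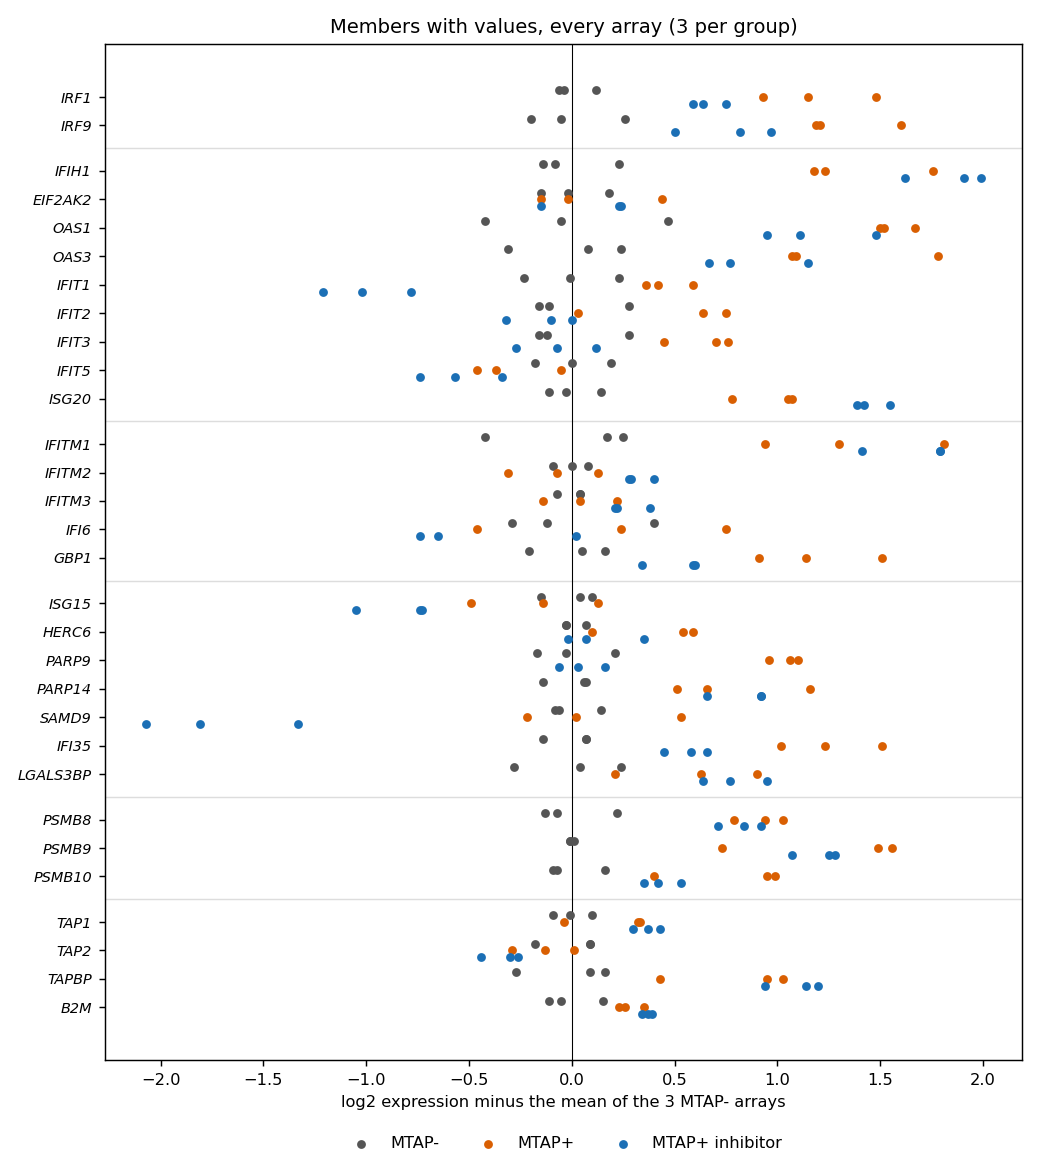
Log2 expression of the 30 members with values on every array, minus the mean of the 3 MTAP- arrays (x axis); grey points are MTAP-, orange MTAP+ and blue inhibitor-treated MTAP+ cells, and lines part the roles. All 9 immunoproteasome points of MTAP+ cells and all 9 of inhibitor-treated cells lie right of zero, while the inhibitor points of IFIT1, ISG15 and SAMD9 lie left of it.

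Low values shaped which members could be seen. Of the 30 members 20 were at or above 6.64 on all 9 arrays, 3 were so on some arrays of every group, 6 in 2 groups and 1, PARP9, in 1 group. The 6 were IFIH1, OAS1, OAS3, IFITM1 and HERC6, kept through the MTAP+ groups with and without inhibitor, and SAMD9, kept through the untreated groups. Members kept through the group or groups in which they were high were selected for that difference, and PARP9 had to differ, so the counts above are descriptions of the table. The 17 members whose mean over all 9 arrays was above log2 7.96, the 40th percentile of the deposited values, gave 8 higher and 0 lower with MTAP, where 11.0% and 7.12% of the 6555 genes above that level were called. With inhibitor they gave 2 higher and 5 lower, against 5.87% and 8.09% of those genes.

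The letters before the starts can be set beside these calls as a description. Of 8 members with GAS letters and values, 7 were higher with MTAP, all except TAP1, and 3 fell with inhibitor (IRF1, IRF9 and IFI35). All 8 were higher in inhibitor-treated than in MTAP- cells. Of 17 members with ISRE letters and no GAS letters, 8 were higher with MTAP, and with inhibitor 6 fell and 1 rose. In inhibitor-treated against MTAP- cells 7 of these 17 were higher and 4 lower, the 4 being IFIT1, IFIT5, ISG15 and SAMD9. The printed stretches of IFIT1 and ISG15 each hold a pair of ISRE matches, while those of ISG20, SAMD9 and PARP9 hold 1. Over all genes with values and a window, ISRE letters were held by 3.27%, by 4.42% of those higher and 3.35% of those lower with MTAP, and by 4.55% and 3.06% of those higher and lower with inhibitor. GAS letters were held by 7.47% of these genes, by 7.62% of those higher and 7.25% of those lower with MTAP, and by 7.79% and 6.63% of those higher and lower with inhibitor. Between inhibitor-treated and MTAP- cells, GAS letters were held by 8.13% of all genes called higher and 7.18% of those called lower. For ISRE letters these shares were 4.51% and 2.44%.

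Other genes of the pathway outside the 48 were counted by lists. Over all genes 11.7% were called higher and 6.85% lower with MTAP, and 5.95% higher and 7.49% lower with inhibitor. In lists this small, counts of 1 or 2 are close to these shares and are given as descriptions. Of 8 interferon receptor and Janus kinase genes with values, 2 were higher with MTAP and 0 lower, with a median log2 change of 0.11. They were IL10RB, a receptor chain shared by several cytokines (0.91 ± 0.12), and the kinase TYK2 (0.49 ± 0.12). With inhibitor 1 rose, IFNAR2, a chain of the type I receptor (0.46 ± 0.12, adjusted p = 0.0283). JAK1 had no call (0.19 ± 0.11 with MTAP). Signal relays, other IRFs and negative regulators gave 3 of 12 higher with MTAP, the corepressor IRF2BP2 (1.13 ± 0.23), IRF2 (0.66 ± 0.16) and IRF3 (0.62 ± 0.10), and 1 lower, the inhibitor of cytokine signalling SOCS3 (-0.71 ± 0.12, adjusted p = 0.00364). With inhibitor 0 of the 12 were called by limma, with 0 higher and 3 lower at an unadjusted p under 0.05. Nucleic acid sensing genes gave 1 of 11 higher with MTAP, the DNA sensor AIM2 (0.75 ± 0.12), and 1 lower with inhibitor, the adaptor STING1 (-0.46 ± 0.11, adjusted p = 0.0199). ADAR, the editing enzyme, had no call (0.23 ± 0.10).

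Further interferon-stimulated genes gave 9 of 27 higher and 0 lower with MTAP, with a median of 0.29, where all genes gave 11.7% and 6.85%. APOBEC3G, a cytidine deaminase, was at least 2.63-fold higher, at 8.04 ± 0.26 against 6.32 ± 0.10 (log2, SD, n = 3). GBP2, a relative of GBP1, rose by 1.62 ± 0.27, the scramblase PLSCR1 by 1.03 ± 0.12 and the helicase DDX60 by 0.97 ± 0.23. With inhibitor 2 of the 27 fell, TRIM14 (-0.47 ± 0.12) and APOL2 (-0.47 ± 0.13), and 1 rose, the nuclear body protein SP100 (0.40 ± 0.11). All genes gave 7.49% lower and 5.95% higher. Between inhibitor-treated and MTAP- cells 13 of the 27 were higher and 1 lower, where all genes gave 18.8% and 16.2%. The lower one was GBP3, another relative of GBP1 (-1.05 ± 0.21, adjusted p = 0.00355). GBP3 had no call with MTAP (-0.38 ± 0.21) or with inhibitor (-0.67 ± 0.21). UBE2L6, the conjugating enzyme for ISG15, was higher in inhibitor-treated than MTAP- cells by 0.93 ± 0.10 (adjusted p = 1.27e-04), in the comparison in which ISG15 was lower.

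Of 15 other antigen presentation genes 7 were higher and 0 lower with MTAP, with a median of 0.36, where all genes gave 11.7% and 6.85%. HLA-B rose by 1.24 ± 0.14 (adjusted p = 2.89e-04), the trimming peptidase ERAP1 by 1.0 ± 0.17, HLA-G by 0.85 ± 0.14 and HLA-C by 0.82 ± 0.13; class I genes are alike in sequence, and their probe sets may not separate them. With inhibitor 1 of the 15 changed, the protease SPPL2A, which fell (-0.66 ± 0.10, adjusted p = 0.00312). CANX and CALR, the general chaperones of the endoplasmic reticulum, had no call with MTAP (-0.09 ± 0.09 and -0.38 ± 0.24). Standard proteasome subunits and activators gave 1 of 17 higher and 2 lower with MTAP, with a median of -0.03. The higher one was PSME1, part of the activator that interferon induces (0.91 ± 0.17), and the lower ones were PSMA5 (-0.39 ± 0.10) and PSMB6 (-0.38 ± 0.12), the catalytic subunit that PSMB9 replaces. PSME3, the nuclear activator, was the 1 member of that list that fell with inhibitor (-0.60 ± 0.13).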

How the data were processed

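The deposited values are log2 expression. Per the submitters' processing notes the authors used RMA, whose version and settings the sources used here do not give. Of 54675 probe sets listed, 37201 had no value and 17474 had one on every array, each reaching 6.64, log2 of 100, on 3 arrays or more, so dim probe sets had been removed. Symbols came from the platform's annotation table, and 15485 non-control probe sets carried 1 symbol. A gene was read from its probe set of highest mean (9453 genes), with no further filter and no pseudocount, since the members include dim genes.

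A linear model with the 3 groups was fitted to all 9 arrays with limma 3.58.1 (R 4.3.3; lmFit, eBayes), with Benjamini-Hochberg adjustment over all genes of a comparison and a threshold of 0.05. MTAP was left out of the background counts. On simulated data for MTAP+ against MTAP- cells (9453 genes), 79% of added log2 changes of 1 and 40% of changes of 0.5 were recovered. Few genes were changed there, and the noise of each array was drawn on its own. In the data 18.5% of all genes were called and same-numbered arrays correlated, so these shares may not hold for them. Intervals are 95% intervals of the model. Precision is limited by 3 arrays a group. The p-values weigh a difference between groups against the spread between arrays within groups, which limma draws towards that of all genes.

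Deviations of same-numbered arrays from their group means correlated over genes at 0.13 to 0.35 between MTAP- and MTAP+ cells. Between MTAP+ cells with and without inhibitor they correlated at 0.30 to 0.72, so the numbers were taken to pair these groups. Between MTAP- and inhibitor-treated cells they gave 0.02 to 0.29. The main fit left this pairing out, so its SEs and adjusted p-values are unpaired. Counts from the fit with the replicate numbers as a block are given beside it. Members, lists and the rule for named genes (all members, and up to 4 called and 2 uncalled genes of each other list) were set with earlier results of these data known. Promoter windows and letters came from RefSeq (GRCh38.p14).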

Additional observations from a re-analysis of the deposited data

How the results depend on the processing

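Of the member calls, 11 of 16 with MTAP, 3 of 10 with inhibitor and 13 of 20 between inhibitor-treated and MTAP- cells passed in every alternative in which the gene was fitted, and 0 called changes turned sign. The 11 and the 3 include PARP9, which the table kept through the untreated MTAP+ arrays alone. The 11 also include OAS1 and IFITM1, and the 13 include IFIH1 and IFITM1. No MTAP- array of these genes reached log2 of 100, so the table kept them through MTAP+ arrays, where they were high. Passing every alternative is no support for any of them. Leaving out 1 array gave 15 to 19 members higher and 0 lower with MTAP, 0 to 3 higher and 4 to 9 lower with inhibitor, and 13 to 18 higher and 3 to 5 lower between inhibitor-treated and MTAP- cells. The 10 members higher with MTAP among genes at or above log2 of 100 on all arrays came from fewer genes tested. Genes with a mean above the 40th percentile, an alternative chosen after seeing the data, likewise gave, of 17 members, 8 higher with MTAP, 2 higher and 5 lower with inhibitor, and 9 higher against MTAP- cells. Leaving out the probe sets marked as binding more than 1 transcript, 10 were higher and 2 lower against MTAP- cells. With the mean of a gene's probe sets 1 member was lower with MTAP and 2 were higher with inhibitor. With inhibitor 2 were also higher after the 40th percentile filter on at least 3 arrays, among genes at or above log2 of 100 on all arrays, with arrays centred, with the trend and robust prior, and with values raised to log2 of 100, which was chosen after seeing the data.

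The replicate block gave 19 higher and 1 lower with MTAP, where 16.0% and 9.96% of all genes were called. With inhibitor it gave 3 higher and 11 lower, where all genes gave 9.27% and 11.0%. Between inhibitor-treated and MTAP- cells it gave 17 higher and 4 lower, where all genes gave 22.3% and 20.3%. PSMB10 gained a call in that comparison (adjusted p = 0.0391), and the other gains stand in the results. The block ended no member's call. Centring turned the share of higher genes among all called genes with MTAP from 63% to 45.5%, and repeated quantile normalization to 47.1%, while members stayed at 16 higher and 0 lower under both. The rule that a probe set reach log2 of 100 on 3 arrays sets which dim members can be seen.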
